A study of Mus musculus with 22 samples.

Results

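ATRX occupancy was described from the 4 ATRX peak lists among the 22 samples of the series. They come from 2 scramble KD and 2 TERRA KD samples and hold 84075 of the 1581404 peaks listed in the series. The members were chosen by the assay and the condition in the sample labels, and every listed peak was kept. The cells were mouse 16.7 embryonic stem (ES) cells, an XX line of the background CAST/Ei x 129/Sv/Jae, kept in medium with LIF and 15% FBS on feeders that were removed before the knockdown. The TERRA KD cells received LNA gapmers against TERRA and the scramble KD cells scramble LNA gapmers, each for 12 h, so that nucleofection and LNA chemistry were shared by both conditions. Chromatin was fixed with 1% formaldehyde and precipitated with a rabbit polyclonal ATRX antibody. All samples come from 1 cell line. The study calls the ATRX replicates biological, while the labels do not say what separates replicate 1 from replicate 2. In the label for the source of the cells the scramble KD samples also read as TERRA KD, whereas their titles and treatments read as scramble, and the titles were used. The level of TERRA is not measured by these lists. To check the cell type, ATAC peaks within 1 kb of the transcription start site (TSS) were counted in each ATAC list. They were found at 28 to 29 of 30 genes of the pluripotency list and at 10 to 13 of 20 feeder fibroblast markers. Of all 26182 TSS, 14951 had an ATAC peak in all 4 lists. The feeder count thus does not tell whether feeder cells remained.

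TERRA is a noncoding RNA that carries telomeric repeats and is transcribed from the ends of chromosomes. ATRX is a chromatin remodeler of the SWI/SNF family that, with its partner DAXX, deposits the histone variant H3.3 at telomeres, pericentromeric repeats and other heterochromatin, and it binds DNA that can fold into G-quadruplexes (G4). H3K9me3 is the histone mark of such heterochromatin, ATAC peaks mark open chromatin, and G4 peaks were made with the BG4 antibody.

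The sequences below stand for kinds of site that the ATRX lists turned on. All are from GRCm38/mm10, and capitals mark CG. The first 2 stand for repeated RNA genes whose loci held many more tags in listed peaks in both TERRA KD lists than in either scramble KD list. Rn4.5s is the 4.5S RNA gene at chr6:47654921-47655094 on the minus strand. The other is a 150 base stretch of the 45S ribosomal DNA copy of chromosome 17, at chr17:39844233-39844382 on the plus strand. They held 8 and 22 CG.
Rn4.5s: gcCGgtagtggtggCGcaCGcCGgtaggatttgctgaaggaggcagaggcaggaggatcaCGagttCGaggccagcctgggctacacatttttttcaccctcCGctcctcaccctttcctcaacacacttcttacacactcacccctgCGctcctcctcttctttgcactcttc
45S ribosomal DNA copy: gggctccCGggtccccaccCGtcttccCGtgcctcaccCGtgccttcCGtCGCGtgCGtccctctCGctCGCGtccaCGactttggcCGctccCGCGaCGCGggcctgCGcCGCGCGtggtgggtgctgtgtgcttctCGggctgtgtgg

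The last 3 are 150 base windows of replicated sites, on the plus strand with CG in capitals. The site beside Gm13276 at chr4:88785792-88785941 and the site at chr1:136808897-136809046 had a peak in both TERRA KD lists alone, and the site in Ubqln1 at chr13:58177580-58177729 in both scramble KD lists alone. Their GC shares were 60.7%, 48.0% and 36.7%.
Gm13276 site: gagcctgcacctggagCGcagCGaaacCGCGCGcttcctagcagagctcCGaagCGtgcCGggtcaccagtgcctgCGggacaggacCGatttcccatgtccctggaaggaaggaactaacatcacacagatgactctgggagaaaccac
chromosome 1 site: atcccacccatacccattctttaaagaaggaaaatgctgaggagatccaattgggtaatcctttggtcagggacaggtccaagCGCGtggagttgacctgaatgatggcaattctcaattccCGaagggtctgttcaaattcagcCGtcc
Ubqln1 site: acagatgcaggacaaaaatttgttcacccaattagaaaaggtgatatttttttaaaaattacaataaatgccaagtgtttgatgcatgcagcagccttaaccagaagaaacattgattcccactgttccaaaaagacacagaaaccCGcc

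The ATRX lists of both TERRA KD samples were longer than those of both scramble KD samples, and they also held a larger share of the tags of their library. There were 7321 peaks in scramble KD replicate 1 and 13652 in replicate 2, against 41384 and 21718 for the TERRA KD replicates. The 2 TERRA KD lists differed from each other by more peaks than the 2 scramble KD lists did. A tag is a read kept after removal of duplicates, and the ChIP libraries held 6606064, 15506154, 4104486 and 14878010 tags in the same order. The share of them inside peaks was 1.11% (95% Wilson interval 1.1% to 1.12%, for counting error only) and 1.14% (1.14% to 1.15%) in scramble KD. In TERRA KD it was 8.01% (7.98% to 8.03%) and 1.97% (1.96% to 1.97%). The mean difference was 3.86 percentage points, with an exact permutation p of 0.333, two-sided over the 4 samples. Without TERRA KD replicate 1 the difference was 0.84 points. When the 7321 best-scored peaks of each list were used, so that the lists were equally long, the shares were 1.11% and 0.715% after scramble KD and 3.7% and 0.958% after TERRA KD. The conditions then overlapped, and the difference was 1.42 points (exact permutation p 0.667). The p of 0.333 is the smallest that 2 samples against 2 can give, so no comparison of the conditions below could pass a threshold of 0.05.

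The input libraries differed as well, at 3366921 and 19735093 tags beside the scramble KD samples and 3374834 and 28622103 beside the TERRA KD samples. ChIP tags per input tag were thus 1.96 and 0.786 in the scramble KD lists and 1.22 and 0.52 in the TERRA KD lists. File names place the ChIP and input libraries of replicate 1 in 1 sequencing lane and those of replicate 2 in 2 others, so that the replicate number and the lane cannot be told apart. The part of depth and of the input in the number of peaks was not tested.

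Most ATRX peaks were short and rested on few tags in every list. The median width was 432 and 534 bp after scramble KD and 460 and 559 bp after TERRA KD, a mean difference of 26.5 bp that was smaller than the gap between replicates (exact permutation p 0.667). Over whole lists, widths thus ordered by replicate number and not by condition. With equally long lists the medians were 432 and 556 bp in the scramble KD lists and 748 and 650 bp in the TERRA KD lists, which did not overlap and differed by 205 bp (exact permutation p 0.333). Peaks of a −log10 p of at least 5 also did not overlap, at 837.5 and 811 bp after scramble KD and 997 and 947 bp after TERRA KD. The share of peaks wider than 1 kb was 3.26% and 3.41% after scramble KD and 6.06% and 5.17% after TERRA KD, so that here the conditions did not overlap. Peaks over 3 kb numbered 9 and 25 in the scramble KD lists and 77 and 35 in the TERRA KD lists, and the widest in each list measured 7034, 7230, 13398 and 12943 bp. Together the peaks covered 3.61 and 8.01 Mb in the scramble KD lists and 22.9 and 13.4 Mb in the TERRA KD lists, which is a log2 ratio of 1.70 on average (exact permutation p 0.333). Tags per peak also followed the replicate number, with medians of 6 and 10 after scramble KD and 5 and 10 after TERRA KD. At the upper end the order was that of the conditions, with 42 and 50 peaks of at least 100 tags in the scramble KD lists and 116 and 86 in the TERRA KD lists. The peak with the most tags held 1050 and 860 tags after scramble KD and 4943 and 5079 after TERRA KD. In both TERRA KD lists it lay at chr14:19415393-19419828, at ranks 848 and 8 by score. Its fold enrichment over the local background was low, at 2.3 and 2.34. Of the tags inside peaks, the 100 best-scored peaks held 15.7% and 4.58% after scramble KD and 9.58% and 8.03% after TERRA KD, so that this measure of concentration overlapped between conditions.

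Chromosomes 6 and 8 carried the highest density of ATRX peaks in all 4 lists, and so in both conditions. Chromosome 6 held 6.32 and 16.4 peaks per Mb in the scramble KD lists and 26.3 and 21.7 in the TERRA KD lists. Chromosome 8 held 6.42 and 15.1 after scramble KD and 27.5 and 26.9 after TERRA KD. The other autosomes together held 2.43 and 4.00 in the scramble KD lists and 15.0 and 6.74 in the TERRA KD lists. Relative to them, both chromosomes together were 2.62 and 3.94 times as dense after scramble KD and 1.79 and 3.58 times after TERRA KD. They thereby held 23.6% and 31.4% of the scramble KD peaks and 17.6% and 30.2% of the TERRA KD peaks, and the conditions overlapped in this share. Chromosome 14 came next in 3 lists and chromosome 17 in TERRA KD replicate 1.

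The same ratio in the H3K9me3 lists, which share their input libraries with ATRX, was 1.37 and 1.89 in the scramble KD lists and 1.31 and 1.77 in the TERRA KD lists. In the G4 and ATAC lists it ran from 1.14 to 1.37. Peaks lay along the whole of both chromosomes, less evenly in the TERRA KD lists. Across stretches of 10 Mb, the coefficient of variation of the peak number was 0.155 to 0.19 in the scramble KD lists. In the TERRA KD lists it was 0.25 to 0.441 on chromosome 6 and 0.25 to 0.37 on chromosome 8. On chromosomes 2, 4, 11 and 14 it was 0.192 to 0.536 over all 4 lists. In TERRA KD replicate 2 a stretch held 110 to 378 peaks on chromosome 6 and 111 to 374 on chromosome 8. What sets chromosomes 6 and 8 apart was not tested.

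**Figure D1:**
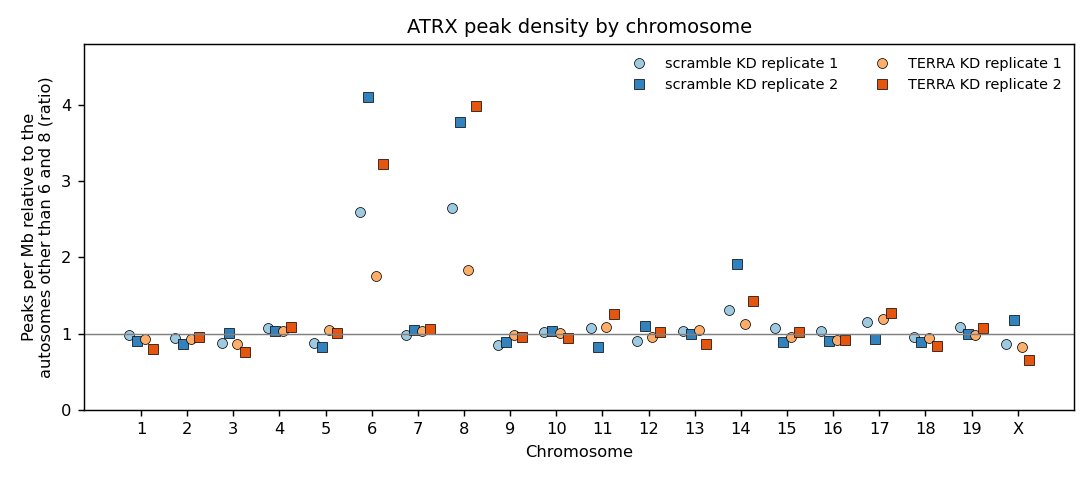
ATRX peaks per Mb on each autosome and on X, divided by the density of the autosomes other than 6 and 8 in the same list (vertical axis, a ratio), with 1 point per list and the grey line at 1. Chromosomes 6 and 8 stand above the other autosomes in all 4 lists, by 1.79 to 3.94 times when pooled.

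Over all listed peaks, chromosome X was less dense in ATRX peaks than all autosomes pooled in every list. Its density relative to theirs was 0.731 and 0.883 after scramble KD and 0.76 and 0.502 after TERRA KD, a mean difference of −0.18 (exact permutation p 0.667). By that ratio the order did not follow the conditions, because TERRA KD replicate 1 lay between the scramble KD samples. The pooled autosomes include the dense chromosomes 6 and 8. Relative to the other autosomes, the X stood at 0.865 and 1.18 after scramble KD and 0.828 and 0.648 after TERRA KD. It was thus denser than them in scramble KD replicate 2, and the conditions did not overlap. Among peaks of a −log10 p of at least 5, the X was denser than all autosomes pooled in 3 of the 4 lists. The ratios were 1.22 and 1.47 after scramble KD and 1.07 and 0.795 after TERRA KD. There the conditions did not overlap, with a difference of −0.41 (exact permutation p 0.333). On chromosome Y, 48 peaks were listed in each scramble KD list and 146 and 73 in TERRA KD. Of these, 40 and 25 in the scramble KD lists and 43 and 37 in the TERRA KD lists lay in the stretch chrY:90000001-91000000 at its end, where the pseudoautosomal sequence shared with the X lies. That 1 Mb stretch held 34 and 16 of the 500 best-scored peaks after scramble KD and 30 and 25 after TERRA KD. Peaks elsewhere on Y numbered 8 and 23 in the scramble KD lists and 103 and 36 in the TERRA KD lists, in a line described as XX. Since reads from X and Y copies of the pseudoautosomal genes cannot be told apart, which chromosome they came from is uncertain.

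The strongest ATRX peaks had a different makeup from the rest of each list. Peaks were ranked by the score within their own list, since the score is not scaled between libraries. Of the 100 best-scored peaks, 72% and 79% after scramble KD and 83% and 63% after TERRA KD overlapped a peak of the other replicate of that condition. In ranks 101 to 500 the share was 27.5% and 17% in the scramble KD lists and 58.5% and 58.8% in the TERRA KD lists. In ranks 501 to 2000 it was 4.53% and 5.53% after scramble KD and 31.8% and 30.1% after TERRA KD. The conditions did not overlap in these last 2 bands. They did not overlap over whole lists either, where the share was 5.26% and 2.84% in the scramble KD lists and 6.07% and 11.7% in the TERRA KD lists. This share also depends on the length of the other list, which was longer in TERRA KD. Of the scramble KD peaks beyond rank 2000, 2.54% and 1.52% of those down to rank 7321 were found in the other replicate.

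H3K9me3 accompanied the top of every ATRX list. Among the 100 best-scored peaks, 70% and 92% in the scramble KD lists and 82% and 79% in the TERRA KD lists overlapped an H3K9me3 peak of the same condition and number. Among the best 500 it was 62% and 60.8% after scramble KD against 79.6% and 70% after TERRA KD, a mean difference of 13.4 percentage points (exact permutation p 0.333). In ranks 501 to 2000 it was 23.6% and 25.9% in the scramble KD lists and 88.5% and 37.1% in the TERRA KD lists. TERRA KD replicate 1 thus stood apart from the other 3 lists in that band, and 99.7% of the bases of its median peak there were soft-masked as repeats in the genome. Open chromatin was also common at the top. An ATAC peak overlapped 49% and 70% of the 100 best-scored peaks after scramble KD and 81% and 95% after TERRA KD.

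**Figure D2:**
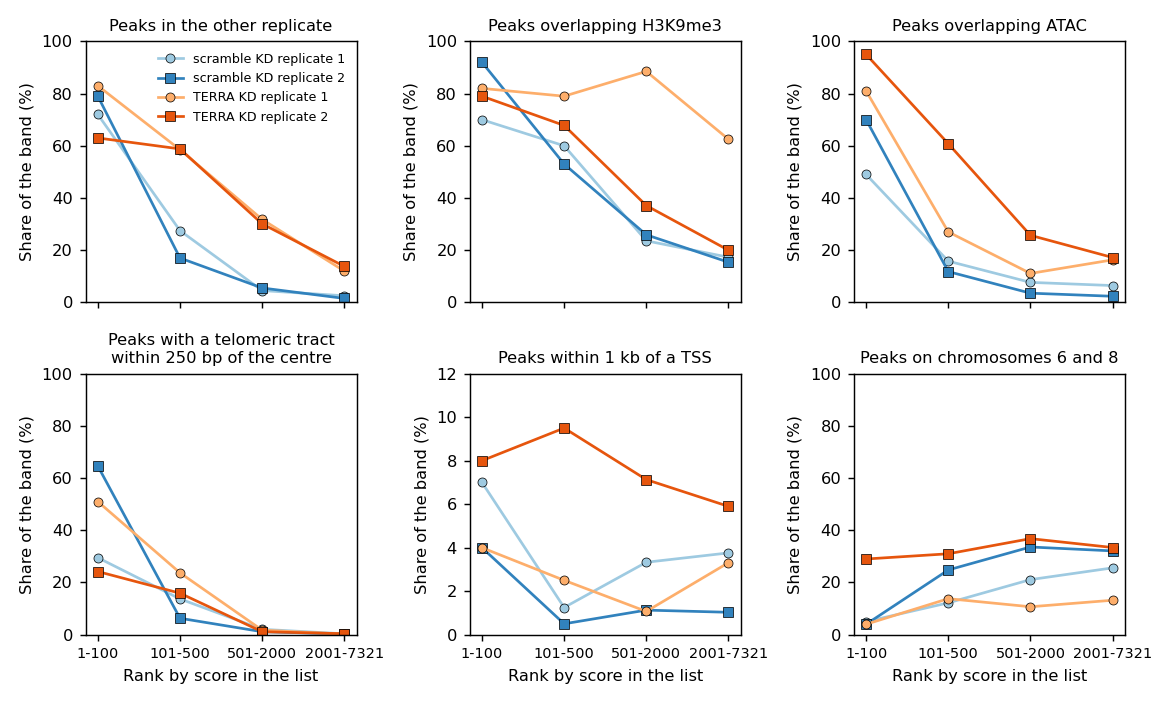
Share of ATRX peaks (percent, vertical axes) by rank band of the score within each list (horizontal axes) that overlapped the other replicate, H3K9me3 or ATAC peaks, held a telomeric tract within 250 bp of the centre, lay within 1 kb of a TSS or lay on chromosomes 6 and 8, with 1 line per list and a TSS axis that ends at 12%. From ranks 1 to 100 down to ranks 2001 to 7321, overlap with the other replicate went from between 63% and 83% to between 1.52% and 13.8%.

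Telomeric tracts were frequent among the strongest ATRX peaks of both conditions. A tract was taken as 4 or more uninterrupted copies of TTAGGG, read on both strands. The build has 362 of them, and 0.00593% of all 500 bp tiles of the genome contain one. Peaks with such a tract numbered 131 and 121 in the scramble KD lists and 197 and 132 in the TERRA KD lists. In the top 100 peaks of each list there were 28 and 62 after scramble KD and 49 and 24 after TERRA KD, so that the conditions overlapped. Within the top 500 there were 82 and 87 in the scramble KD lists and 142 and 87 in the TERRA KD lists. The best rank of a tract peak was 2 and 1 after scramble KD and 6 and 21 after TERRA KD.

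The marks at these tract peaks divided by replicate number. H3K9me3 overlapped 13.7% (scramble KD) and 42.1% (TERRA KD) of them in replicate 1, against 96.7% and 94.7% in replicate 2. G4 peaks went the other way, with 73.3% and 58.4% in replicate 1 against 14% and 8.33% in replicate 2. ATAC peaks overlapped 52.7% and 67.8% after scramble KD and 58.4% and 83.3% after TERRA KD.

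Peaks found again in the second replicate were far more numerous in TERRA KD. Merging overlapping peaks of the 4 lists gave 78452 regions. A peak in both TERRA KD lists and in neither scramble KD list was found in 1760 of them, 2.24% of all regions. The opposite pattern, both scramble KD lists and neither TERRA KD list, was found in 74 regions, or 0.0943%. All 4 lists shared 207 regions, or 0.264%. With equally long lists the numbers were 546, 52 and 154. With peaks of a −log10 p of at least 5 alone they were 111, 1 and 50. Pairs of lists across the conditions also shared regions found in no other list. Replicate 1 of both conditions shared 668 and replicate 2 of both 251. Scramble KD replicate 2 shared 599 with TERRA KD replicate 1, and scramble KD replicate 1 shared 106 with TERRA KD replicate 2. Such numbers depend on the lengths of the lists paired.

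These kinds of region differed in sequence. The regions of TERRA KD alone had a median GC of 49.2% and a median of 90.0% soft-masked bases and 12 CG. Those of scramble KD alone had 40.1% GC, 49% masked bases and 3 CG, and all regions together 45.5% GC and 29.5% masked bases. H3K9me3 peaks of the 4 lists overlapped 55.5% to 63.3% of the regions of TERRA KD alone and 28.4% to 31.1% of those of scramble KD alone. Regions of TERRA KD alone were thus mostly in repeats, and more than 50% of them were also in H3K9me3 in each list, scramble KD included. This makeup was not particular to them. Regions of replicate 1 of both conditions alone had 90.5% masked bases. Those of scramble KD replicate 2 and TERRA KD replicate 1 alone had 96.9%. H3K9me3 peaks overlapped 62.7% to 74.6% and 62.4% to 69.1% of these. Regions of replicate 2 of both conditions alone had 40.9% masked bases. Those of scramble KD replicate 1 and TERRA KD replicate 2 alone had 33.3%. At most 30.7% of either overlapped H3K9me3 in a list. Of the regions in all 4 lists, 94 (45.6%) held a telomeric tract. Most of the replicated regions were weak in their lists: in 62 of the 1760 and 1 of the 74 did every peak reach a −log10 p of 5, as did 50 of the 207.

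The best-ranked regions shared by all 4 lists lay near the ends of chromosomes and in multi-copy families. Here and in the next paragraph, the tags of a region are those of its best-ranked peak in each list. A region can hold further peaks of the same list. The region chrY:90791705-90795545 at Erdr1, a pseudoautosomal gene, held 569 and 217 tags in the scramble KD lists and 1163 and 256 in the TERRA KD lists. At chr9:123923925-123926288 in the lncRNA gene Gm51701, tags were 273 and 168 after scramble KD and 565 and 195 after TERRA KD. The region chrX:170672616-170677963 at Asmt, the last enzyme of melatonin synthesis, held 272 and 92 tags in the scramble KD lists and 420 and 121 in the TERRA KD lists. Scramble KD replicate 2 had a further peak of 32 tags in that region. At chr7:7277169-7279206, over the pheromone receptor gene Vmn2r29, the tags were 164 and 98 after scramble KD and 340 and 116 after TERRA KD. These tags are not scaled to depth, and replicate 1 was higher than replicate 2 at all 4 sites although its libraries held fewer tags.

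Regions of TERRA KD alone included wide peaks on chromosome 6. The region chr6:47741209-47754606 at Gm52861 held 1453 and 1421 tags, and chr6:47766782-47773447 held 147 and 348. Both regions lie in the locus of repeated RNA genes on chromosome 6 described below, and their tags are counted again there. On the X, the best-ranked peaks of chrX:169998299-170006679 held 951 and 279 tags, over widths of 8381 and 2592 bp. This region lies in a 30 kb window beside Mid1, which encodes a microtubule-binding ubiquitin ligase. Peaks covered 25.6% and 16.1% of that window in the scramble KD lists and 70.0% and 55.4% in the TERRA KD lists. In a 20 kb window beside Gm51701 on chromosome 9, by contrast, they covered 56.0% and 53.7% after scramble KD and 57.7% and 54.1% after TERRA KD. The best-ranked regions of scramble KD alone held fewer tags. At chr10:72296925-72297682 there were 33 and 36 tags at ranks 66 and 54, around 150 bases of T. In the gene of the ubiquitin-binding protein Ubqln1, chr13:58177229-58178109 held 87 and 163.

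At the loci of repeated RNA genes the conditions stood far apart. These loci, and the windows beside Mid1 and Gm51701, were picked after their peaks had been seen, so their values are descriptions without a test. The 5S ribosomal RNA, a part of the large ribosomal subunit made by RNA polymerase III, is encoded on chromosome 8 in 51 copies, counted as annotated genes and pseudogenes of this length, between positions 123538784 and 123623745, spaced by a median of 1698 bp. With 5 kb on either side, ATRX peaks at this locus numbered 1 and 2 in the scramble KD lists and 34 and 47 in the TERRA KD lists, with 24 and 24 tags against 1227 and 1367. They covered 0.973% and 1.1% of the locus in the scramble KD lists and 57.7% and 54.1% in the TERRA KD lists. A peak overlapped 1 and 1 of the 51 copies after scramble KD and 31 and 32 after TERRA KD. The best rank of a peak there was 3409 and 5321 in the scramble KD lists and 137 and 26 in the TERRA KD lists. By covered bases, only G4 of the other assays divided the conditions at the 5S locus, with the lower values in TERRA KD. H3K9me3 peaks covered 7.63% and 2.94% after scramble KD and 26.0% and 7.27% after TERRA KD, and ATAC peaks covered 15.2% to 17.1% in all 4 lists. G4 peaks covered 83.3% and 77.1% in the scramble KD lists and 75.0% and 44.6% in the TERRA KD lists. The tags in these G4 peaks overlapped between conditions, at 2126 and 6243 after scramble KD and 4282 and 2020 after TERRA KD.

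The 4.5S RNA, a short RNA of rodents also made by RNA polymerase III, is encoded on chromosome 6 in 18 copies, found by shared stretches of sequence with Rn4.5s, between positions 47650682 and 47778339. No ATRX peak was listed at this locus in either scramble KD list. The TERRA KD lists held 9 and 3 peaks there with 3584 and 1889 tags, over 11 and 6 of the copies, with best ranks of 66 and 7. These include the peaks of the chromosome 6 regions named above, so they are not a separate finding. H3K9me3 peaks covered 4.94% and 0% of the locus after scramble KD and 2.16% and 17.4% after TERRA KD. ATAC peaks covered 11.1% to 13.9% in all 4 lists, so that openness by this measure was listed in both conditions. G4 peaks covered 48.9% and 53.4% of the locus after scramble KD and 43.0% and 13.9% after TERRA KD. This coverage was lower in TERRA KD, as at the 5S locus, but the tags in G4 peaks again overlapped. They numbered 3985 and 19259 after scramble KD and 8565 and 3424 after TERRA KD.

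The 45S precursor gives the 18S, 5.8S and 28S ribosomal RNAs, and the build holds a copy of its DNA on chromosome 17. There the TERRA KD lists held a single peak each, 2515 and 2881 tags at ranks 23 and 1, in the region chr17:39842949-39848875. No ATRX peak was listed there in scramble KD. The fold enrichment of these peaks over the local background was modest, at 4.14 and 9.24. ATAC peaks covered 44.8% to 47.5% of this locus in all 4 lists, and no H3K9me3 peak was listed there in any of them. G4 peaks covered 54.4% and 51.0% after scramble KD and 54.1% and 0% after TERRA KD, so that the conditions overlapped. By contrast, a multi-copy window on chromosome 2, chr2:98660001-98670000, held peaks in replicate 2 alone, with 817 tags after scramble KD and 3934 after TERRA KD.

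All of these loci are repeated, and reads from identical copies cannot be assigned to a copy. Of the 51 5S copies, 31 are identical to Rn5s, and of the 18 4.5S copies 11 are identical to Rn4.5s. Aligned with default settings of Bowtie2, such a read is placed at 1 of its best positions, so the locus as a whole is meant here and the number of copies with a peak is uncertain. The same holds for ribosomal DNA that the build leaves out, whose reads can gather at the copy of chromosome 17.

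**Figure D3:**
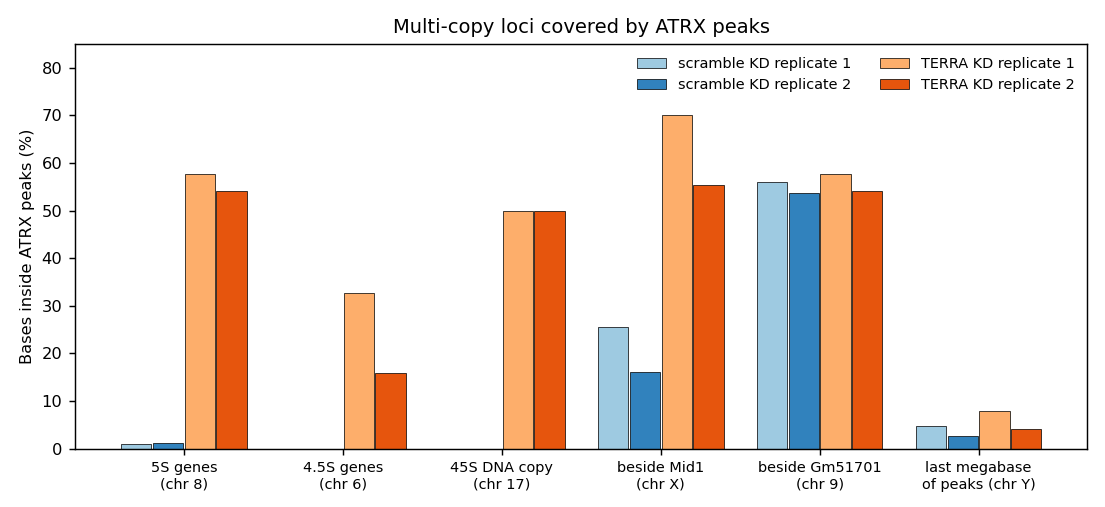
Percent of the bases of each multi-copy locus that lay inside ATRX peaks (vertical axis), with 1 bar per list. At the 5S locus the scramble KD lists lie at 0.973% and 1.1% and the TERRA KD lists at 57.7% and 54.1%, whereas beside Gm51701 all 4 lists lie between 53.7% and 57.7%.

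The ATRX peaks of TERRA KD were richer in GC and more often in open chromatin. The median GC was 43.3% and 40.1% in the scramble KD lists and 46.7% and 47.3% in the TERRA KD lists, against 41.4% over 500 bp tiles of the genome. The mean difference was 5.32 percentage points, and the conditions did not overlap (exact permutation p 0.333). An ATAC peak of the same condition and number overlapped 7.79% and 3.01% of the peaks after scramble KD and 15.3% and 15.7% after TERRA KD. This difference of 10.11 points exceeded the gap between replicates of either condition (exact permutation p 0.333). It turned to −5.88 points with peaks of a −log10 p of at least 5 alone, a set in which the scramble KD lists hold 178 and 185 peaks. G4 peaks overlapped 9.37% and 19.3% in the scramble KD lists and 19.2% and 26.8% in the TERRA KD lists, where TERRA KD replicate 1 and scramble KD replicate 2 lay close together (exact permutation p 0.667).

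H3K9me3 did not divide the conditions over all peaks, nor among the top 100 peaks given above. It overlapped 21.6% and 16.4% of the peaks after scramble KD and 30.2% and 16.9% after TERRA KD, a difference of 4.53 points that turned to −2.07 without TERRA KD replicate 1 (exact permutation p 0.667 with all samples). With equally long lists it overlapped 21.6% and 20.6% in the scramble KD lists and 69.0% and 26.9% in the TERRA KD lists, which did not overlap and differed by 26.83 points (exact permutation p 0.333). Most ATRX peaks had neither mark: 72.4% and 82% in the scramble KD lists and 57.7% and 70.7% in the TERRA KD lists overlapped neither an H3K9me3 nor an ATAC peak. Those with an ATAC peak alone made up 5.93% and 1.56% after scramble KD and 12.1% and 12.3% after TERRA KD. Of this open class, 21.2% and 6.57% in the scramble KD lists and 22.5% and 21.9% in the TERRA KD lists lay within 1 kb of a TSS. Scramble KD replicate 2 stood apart from the other 3 lists in that share. The share of peaks in genes (40.0% and 36.2% after scramble KD, 38.8% and 46.6% after TERRA KD) and the median masked share (29.6% and 34.8% in the scramble KD lists, 36.2% and 24.8% in the TERRA KD lists) overlapped between the conditions.

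With whole lists, the conditions differed by a larger ratio near the TSS than over all peaks. Of 26182 TSS of curated RefSeq genes, 280 and 155 had a peak within 1 kb in the scramble KD lists and 2154 and 1266 in the TERRA KD lists, that is 1.07% and 0.592% against 8.23% and 4.84%. The mean log2 ratio was 2.99 against 1.58 for all peaks (exact permutation p 0.333 for each). With equally long lists there were 280 and 78 such TSS after scramble KD and 237 and 509 after TERRA KD, so that the conditions overlapped, at a log2 ratio of 1.23 (exact permutation p 0.667). Among the 500 best-scored peaks, 2.4% and 1.2% lay within 1 kb of a TSS after scramble KD and 2.8% and 9.2% after TERRA KD. Scramble KD replicate 1 and TERRA KD replicate 1 lay close together there, and the difference of 4.20 points was 1.00 without TERRA KD replicate 2. The conditions overlapped among the best 2000 peaks (3.1% and 1.15% in the scramble KD lists, 1.5% and 7.65% in the TERRA KD lists) and among the best 100. They tied at 2.4% in replicate 1 without chromosomes 6 and 8. By the peak centre, 2.88% and 0.794% of the peaks in the scramble KD lists and 4.07% and 4.26% in the TERRA KD lists lay within 1 kb of a TSS. In bins of 250 bp within 500 bp of the TSS, the share of the list per bin was 0.274% to 0.425% in scramble KD replicate 1 and 0.0662% to 0.0956% in replicate 2. It was 0.545% to 0.608% in TERRA KD replicate 1 and 0.369% to 0.715% in replicate 2. Seen from the peaks, the median distance to the nearest TSS was 41.6 and 54.8 kb after scramble KD and 36.6 and 28.8 kb after TERRA KD.

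Few TSS had the difference in both replicates. A peak in both TERRA KD lists and in neither scramble KD list, called a gain below, was found at 186 TSS, 0.71% of those tested, and 128 of them belonged to the 21000 protein-coding genes. The opposite pattern was found at 2 TSS, 0.00764%, those of the receptor genes Olfr460 and Vmn1r7. A further 1921 and 1039 TSS had a peak in TERRA KD replicate 1 or replicate 2 alone, so that most peaks at TSS were listed once. At 113 of the 186 TSS the peaks of both replicates overlapped each other, and at 73 (39.2%) they lay within 1 kb of the same TSS without overlapping. The peaks at the gained TSS held a median of 5 tags in TERRA KD replicate 1 and 12 in replicate 2. The number of gains was 98 without chromosomes 6 and 8, 42 with equally long lists and 19 with peaks of a −log10 p of at least 5. At this depth a TSS without a listed peak is one where no enrichment was detectable.

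By gene class, ribosomal RNA genes stood out. Of 33 rRNA TSS, 27 (81.8%) gained a peak, and the number with any peak was 0 and 1 after scramble KD and 30 and 31 after TERRA KD. These are the copies of repeated genes described above and are not independent. Protein-coding genes (0.61%), lncRNA genes (0.572%, or 19 of 3319), miRNA genes (0.733%, or 9 of 1228) and snoRNA genes (0.794%, or 1 of 126) were near the 0.71% of all TSS. None of 18 snRNA TSS gained a peak. By chromosome, 88 of 2637 TSS on chromosomes 6 and 8 (3.34%) gained a peak against 92 of 22326 on the other autosomes (0.412%) and 6 of 1126 on the X (0.533%). All 33 rRNA TSS are on chromosomes 6 and 8. Of protein-coding TSS, 54 of 2110 on these chromosomes (2.56%) gained a peak and 70 of 17911 on the other autosomes (0.391%).

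The share of gains also varied with the state of the promoter in the other assays. TSS with an ATAC peak in all 4 lists gained an ATRX peak in 144 of 14951 cases (0.963%), and those with none in 24 of 8583 (0.28%). TSS with a G4 peak in all 4 lists gained one in 33 of 2398 cases (1.38%), and those with none in 13 of 6572 (0.198%). H3K9me3 was present in all 4 lists at 84 TSS, and 3 of these (3.57%) gained an ATRX peak, against 140 of 24812 with none (0.564%). The scramble KD lists also had ATRX peaks more often at these 84 TSS. They held one at 9.52% and 7.14% of them, against 0.987% and 0.504% of the TSS with no H3K9me3 peak. Of the gains, rRNA copies made up 19 at TSS with an ATAC peak in all 4 lists and 9 at those with a G4 peak in all 4. Among protein-coding TSS alone, the shares were 0.824% with an ATAC peak in all 4 lists and 0.204% with none, and 1.22% with a G4 peak in all 4 lists and 0.223% with none. RefSeq promoter sequences, from 250 bases before to 50 bases after the start, matched 101 of the 128 gained protein-coding genes and had a median GC of 59.0% and 17 CG. The 16853 matched protein-coding promoters had 57.0% and 14, and the 10621 with an ATAC peak in all 4 lists 61.0% and 20. A G4 motif, which is 4 runs of at least 3 G on either strand with loops of 1 to 7 bases, was in 18.8% of the gained promoters and 22.6% of all matched ones.

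**Figure D4:**
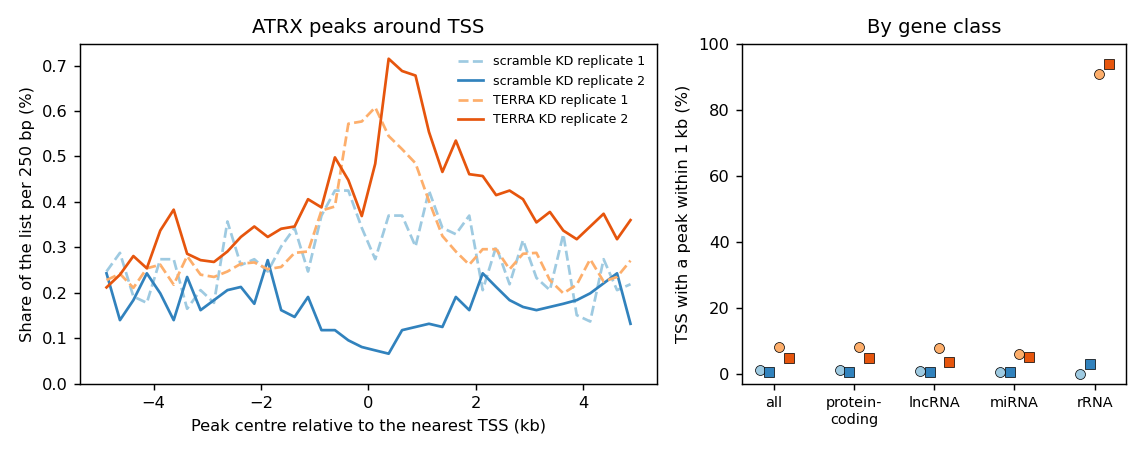
Left, share of each ATRX list per 250 bp (percent) by the position of the peak centre relative to the nearest TSS (kb), with 1 line per list; right, percent of TSS of each gene class with an ATRX peak within 1 kb, with 1 point per list. Within 500 bp of the TSS scramble KD replicate 2 lies at 0.0662% to 0.0956% and TERRA KD replicate 1 at 0.545% to 0.608%, and the other 2 lines share part of their range. Ribosomal RNA genes stand at 0% and 3.03% in the scramble KD lists and at 90.9% and 93.9% in the TERRA KD lists.

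The gained protein-coding TSS with the best ranks lay in part in 1 gene cluster. Gm13276, Gm13287 and Gm13272, with TSS at positions 88785054, 88803254 and 88779850 of chromosome 4, lie in the cluster of type I interferon genes, with 16 Ifn genes within 250 kb. At Gm13276 the TERRA KD peaks held 31 and 27 tags at ranks 395 and 191. At Gm13287 they held 25 and 35 tags at ranks 1442 and 186, and at Gm13272 12 and 18 tags. The cluster is made of similar gene copies, so the assignment of reads among them is uncertain.

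Next came Uros, an enzyme of heme synthesis, with 12 and 15 tags, and E030030I06Rik with 14 and 12. Gm51598 on chromosome 8 held 14 tags in TERRA KD replicate 1 and 78 in replicate 2, where it ranked 44. Wnk1, a kinase that regulates ion transport, held 9 and 26 tags, and Zdhhc7, a palmitoyltransferase, 5 and 12. Fbln2, an extracellular matrix protein, held 11 and 11, and Grip2, an adaptor of glutamate receptors, 10 and 11. The ubiquitin ligase gene Trim45 held 5 and 15 tags, Adprhl1 8 and 25, Ctxn1 13 and 12, Smco2 5 and 25, and the lectin gene Clec4a1 4 and 12. Apart from the interferon cluster, these genes thus rested on 4 to 14 tags in replicate 1, and 9 of the 15 were on chromosomes 6 and 8. At Adprhl1, Clec4a1, Ctxn1, Gm51598, Trim45 and Wnk1 the peaks of both replicates did not overlap each other. Most had an ATAC peak at the TSS in all 4 lists, while Clec4a1 and Smco2 had none.

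TSS with an ATRX peak in both scramble KD lists were 8 in number, and 6 of them had one in both TERRA KD lists as well. At Vmn2r29 the peaks held the tags given above. The copy of Erdr1 on X held 214 and 115 tags after scramble KD and 240 and 136 after TERRA KD, and that on Y 221 and 124 against 249 and 137. Mir7217 held 66 and 23 tags after scramble KD and 42 and 30 after TERRA KD. Disp3, a membrane protein with a sterol-sensing domain, held 11 and 10 in the scramble KD lists and 15 and 11 in the TERRA KD lists. Asmt was the last of the 6. At the 2 TSS of scramble KD alone, Olfr460 held 10 and 10 tags and Vmn1r7 6 and 18.

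Few TSS of the gene lists were among the gains. No TSS gained a peak among 33 genes of the ATRX-DAXX-H3.3 and H3K9 methylation machinery, 30 pluripotency genes, 23 genes of shelterin and telomerase, 10 G4 helicase genes, 39 imprinted genes, 39 Hox genes, 12 globin genes, 85 ribosomal protein genes, 32 cell cycle genes, 24 germline genes or 23 genes of the 2-cell stage. These are small lists against a share of 0.71%, and a count of 0 in them is near the background. Of 71 Sox, Fox and Lhx genes, Sox1 (5 and 16 tags) and Lhx1 (4 and 8), which act in neural and mesodermal development, gained a peak. Of 63 histone genes H2ac24 did, with 7 and 12 tags, and of 20 feeder markers Tagln did, with 6 and 13.

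Among large families, 1 of 1125 olfactory receptor TSS (Olfr373, 11 and 12 tags) and 0 of 350 vomeronasal receptor TSS gained a peak. Of 395 zinc finger genes, the 3 with a gain were Zfp800 (7 and 11 tags), Zfp971 (10 and 29) and Zfp996 (14 and 10). At Zfp800, as at H2ac24 and Tagln, the peaks of both replicates did not overlap each other. Of 58 clustered protocadherin genes 1 gained a peak, and of 30 neural and mesendoderm genes Sox1 was the one that did.

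Over stretches of 1 Mb, the TERRA KD lists held larger shares of their peaks in GC-rich, gene-dense sequence than the scramble KD lists. To set aside the length of the lists, each stretch was given as its share of the peaks of each list. Of 2630 stretches, 566 (21.5%) held a larger share of both TERRA KD lists than of either scramble KD list, and 471 (17.9%) held a smaller share. With so few lists, some stretches fall on either side by the order of the values alone, and that share was not estimated. The stretches with larger shares had a median GC of 44.7% and 12 TSS, and those with smaller shares 39.2% and 4 TSS, against 41.4% and 7 TSS over all. Chromosomes 6 and 8, with 274 of all 2630 stretches, held 19 of the former and 95 of the latter. When the stretches were split by GC into 5 classes of equal size, from the lowest to the highest class 36, 45, 65, 142 and 278 had larger shares and 175, 147, 104, 38 and 7 had smaller shares.

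The class of stretches with the highest GC held 24.4% and 15.5% of the peaks after scramble KD and 30.1% and 38.7% after TERRA KD. In the other assays, the same class held 18.2% and 13.9% of the H3K9me3 peaks in the scramble KD lists and 14.3% and 17.1% in the TERRA KD lists. It held 33.1% and 40.2% of the G4 peaks after scramble KD and 41.1% and 38.2% after TERRA KD, and 38.0% to 40.0% of the ATAC peaks in all 4 lists. The conditions overlapped in H3K9me3 and G4. The GC of the reads outside peaks and of the inputs is not in the lists, and its part in these shares was not tested.

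The stretch with the clearest larger share was chr7:19000001-20000000, with 58 TSS and 50.8% GC, where 1 and 1 peaks after scramble KD stood against 45 and 27 after TERRA KD. At chr5:114000001-115000000 no peak was listed in the scramble KD lists, and 32 and 17 were in the TERRA KD lists. The clearest smaller share was at chr6:130000001-131000000, with 37.4% GC, where 18 and 43 scramble KD peaks stood against 16 and 18 in the longer TERRA KD lists. By the number of peaks, without scaling to the length of the list, 1455 stretches were higher and 4 lower in TERRA KD.

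**Figure D5:**
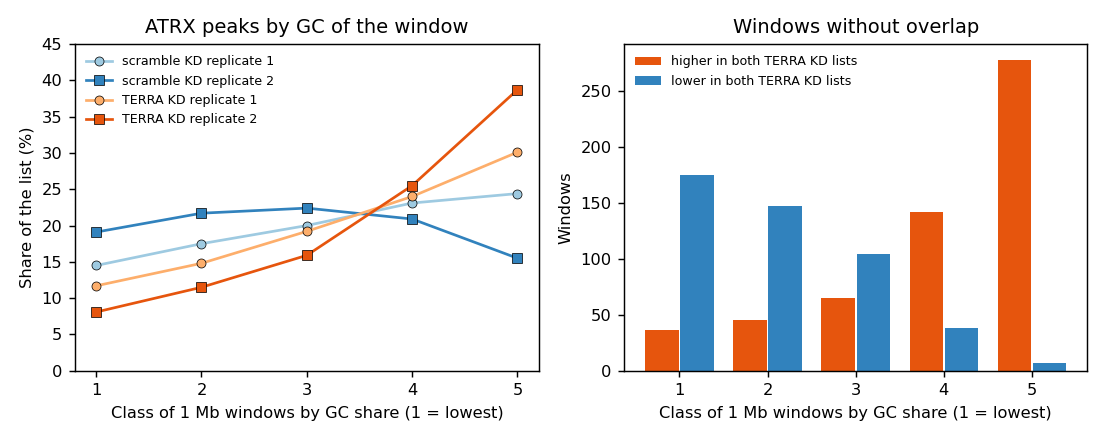
Left, share of the ATRX peaks of each list (percent) in 5 equal classes of 1 Mb stretches ordered by GC from lowest to highest, with 1 line per list; right, number of stretches in each class whose share was higher or lower in both TERRA KD lists. In the class with the highest GC the scramble KD lists hold 24.4% and 15.5% and the TERRA KD lists 30.1% and 38.7%, with 278 stretches higher and 7 lower.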

How the data were processed

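ATRX ChIP-seq of 2 scramble KD and 2 TERRA KD samples was analysed from the deposited peak lists, with the H3K9me3, G4 and ATAC lists of the same conditions beside them. Per the labels and the study's methods, the authors trimmed reads with Trim Galore 0.5.0, aligned them to GRCm38/mm10 with Bowtie2 2.3.4.1, removed duplicates with SAMtools 1.9 and called peaks in each ATRX library against its input with MACS 1.4.3 (per the file headers) at a p of 0.01. Each peak of the deposited lists comes with its count of tags, a score made from the log10 of its p and used here as −log10 p, the fold enrichment, which is a ratio to the local background, and a false discovery rate in percent, which was not used. The deposited ATAC lists also hold a pileup signal, and their −log10 p values were not used. No value is scaled between libraries, so peaks were ranked within their list and tags were not tested between lists. A peak list holds no coverage outside peaks.

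Peaks were overlapped (1 bp minimum), merged into regions and compared with the GRCm38/mm10 sequence and the curated RefSeq TSS of 26182 genes in Python 3.11.15 with numpy 2.4.6, pandas 2.3.3 and SciPy 1.17.1. Plots were made with matplotlib 3.10.9. ChIP depth was 4104486 to 15506154 tags, and Wilson intervals of shares cover counting error only. Samples were grouped by their titles. The mean difference of each per-library value was put to an exact permutation test, two-sided, of 2 samples against 2, and counts of regions, TSS and stretches carry no test. The scripts were tested on simulated lists with known answers.

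Named genes were up to 15 protein-coding TSS gained in both TERRA KD lists, by the worse rank percentile of the peaks, up to 10 TSS with a peak in both scramble KD lists and up to 10 in those alone, the best-ranked replicated regions of each kind and members of the gene lists. Not every region that meets the rule is named, and items on chromosome 18 and some sequences are not reported here. The part of the series, the gene lists and the tests were chosen with earlier results of these data known. Alternatives used stricter peaks, equally long lists, other overlaps, TSS windows, stretches and numbers of top peaks, autosomes and X alone, each library left out, a replicate block, and lists without chromosomes 6 and 8 or without repeated RNA loci. Columns of the authors' own comparisons were not among the files used.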

Additional observations from a re-analysis of the deposited data

How the results depend on the processing

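Of 154 alternative values, 134 kept the direction of the reported value, or for counts stayed within 1.5 times of it, 11 turned the other way and 9 counts moved further. With peaks of a −log10 p of at least 5 alone, the differences turned to −6.37 percentage points for peaks in genes, −5.88 for ATAC overlap and 30.82 for the masked share. That setting left 111 regions of TERRA KD alone, 1 of scramble KD alone, 50 in all 4 lists and 19 gained TSS, of which 16 were rRNA genes. With equally long lists, peaks in genes turned to −1.91 and the masked share to 29.15, with 546 regions of TERRA KD alone and 42 gained TSS. The H3K9me3 difference turned to −0.50 with the top 100 in place of the top 500 peaks. A TSS window of 3 kb gave 545 gains. Stretches of 5 Mb gave 229 of 555 without overlap, in place of 1037 of 2630. The cause of these changes was not tested.

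Leaving out each library in turn, the differences ran from 1.12 to 2.05 for the number of peaks (log2), 0.84 to 6.88 for the share of tags, 1.13 to 2.28 for covered bases (log2), −24.5 to 77.5 bp for width, −0.31 to −0.0468 for X density, 0.66 to 8.51 for peaks in genes, −2.07 to 11.14 for H3K9me3, 7.72 to 12.5 for ATAC, 3.76 to 13.64 for G4, −7.41 to 4.05 for the masked share, 3.73 to 6.92 for GC, 2.56 to 3.41 for TSS (log2), 8.60 to 18.2 for the top 500 in H3K9me3 and 1.00 to 7.40 for the top 500 at TSS. Without scramble KD replicate 1 the width difference was −24.5 bp, and without TERRA KD replicate 2 it was −23 bp. The H3K9me3 difference was −2.07 without TERRA KD replicate 1. The masked share was 0.93 without scramble KD replicate 2 and 4.05 without TERRA KD replicate 2.

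The settings without chromosomes 6 and 8 and without the loci of repeated RNA genes were chosen after seeing the data. The former gave 98 gained TSS, and the latter 159 gained TSS and 1736 regions of TERRA KD alone. The replicate numbers are not stated to mark a shared culture, and over 1 Mb stretches the deviations of same-numbered libraries had an r of 0.01. With the replicate block the log2 ratio of the number of peaks was 1.58, with an exact sign-flip p of 0.5, the smallest that 2 pairs can give. With 4 samples, low depth in replicate 1 and peaks of 5 to 10 tags, a difference at a single weak site was not detectable with confidence at this depth.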
